A study of Mus musculus with 10 samples.

Results

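The genes described here are the translation initiation and elongation factors of the mouse, with the kinases, exchange factors and binding proteins that act on them directly. They were chosen by name as 46 genes, each represented by its Ensembl transcript with the highest mean RNAseq count. Of the 46 genes, 33 had a transcript in the counts, of 13189 annotated genes in all, and for 22 this transcript was measured. With Eef2k, which was measured by another transcript, 23 members are among the 4370 genes with any measured transcript. A transcript counted as measured when it reached 10 RPKM (reads per kilobase of transcript or CDS, scaled to library size) in both assays of the same culture, in at least 2 cultures. The 11 genes listed below that level were Eif2s1, Eif2ak2, Eif2ak3, Eif2ak4, Eif2b3, Eif4b, Eif4ebp1, Eif5a, Eef1a1, Eef1d and Eef2k. Eif1, Eif2s2, Eif2b4, Eif2b5, Eif3a, Eif3b, Eif3g, Eif3k, Eif3m, Eif4a1, Eif4e, Eif4h and Eef2 were not analysed here.

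Translation of most mRNAs starts when the cap-binding complex, built from the cap-binding protein eIF4E, the scaffold eIF4G and the helicase eIF4A, brings the small ribosomal subunit with eIF3 and initiator tRNA on eIF2 to the 5′ end, from where it scans to a start codon. Binding proteins of eIF4E block the first step, and phosphorylation of eIF2 by stress kinases slows the exchange of its nucleotide by eIF2B. Elongation depends on eEF1 and eEF2, and the calcium- and calmodulin-dependent kinase eEF2K slows it by phosphorylating eEF2, a route that has been studied in stimulated neurons.

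Cortices of newborn (P0) FVB mice were dissociated and grown for 7 days as mixed cultures of neurons and glia. Untreated cultures (1, 2 and 3) were compared with cultures depolarized by 55 mM KCl for 3 h (4 and 5), and all of them received cycloheximide, which stalls elongating ribosomes, at 100 ug/ml for 7 min. The paper left out a further KCl replicate because its library was much smaller than those of the other replicates. Each culture gave an RNAseq library and a library of ribosome footprints (RF), fragments of mRNA covered by ribosomes. The sources used here do not state that cultures came from different litters, so p-values measure the spread between these cultures, which may be partly technical.

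RNAseq libraries held 3056286 to 3629959 counted reads and RF libraries 1463654 to 7719915, with the lowest RF totals in untreated culture 3 and KCl culture 4. The median measured member had between 211 and 1178 footprints on its coding sequence (CDS) per RF library. Fos and Nr4a2, early response genes, were higher in the KCl RNAseq libraries by 1.58 and 5.16 on the log2 scale, in the direction of the label. The summed RNAseq level of 8 astrocyte markers was between 10360 and 10990 CPM (reads scaled to library size) in untreated cultures and 8718 and 8945 CPM in KCl cultures. The 8 neuronal markers in the counts, of 10 listed, summed to between 362.6 and 529.0 CPM without KCl and to 470.7 and 459.5 CPM with it, while Map2 and Dcx were not analysed here. In such mixed cultures, fewer cells of a type and less RNA per cell cannot be told apart.

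Features of the 5′UTR and the start codon set some members apart in sequence. In the GENCODE M21 transcripts (GRCm38), the transcript of Eif4g2 is annotated with a GTG start, the only non-ATG start among the members, whereas its relatives Eif4g1 and Eif4g3 start at ATG. Of 7199 measured transcripts with an annotated 5′UTR, 0.153% have a start other than ATG. The start codons are in capitals, with 6 bases before and 3 after.
Eif4g2: gccaaaGTGgag
Eif4g1: aatgaaATGaac
Eif4g3: cagacaATGaac

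A cytosine followed by at least 4 further pyrimidines at the first base of the transcript, the form of the terminal oligopyrimidine tract of mTOR-regulated mRNAs, was found in 2 of the 22 measured members and in 3 of the 33 listed ones, against 2.14% of the 7199 measured transcripts. The pyrimidine runs are in capitals. The letters follow the annotated first base, which may differ from the start used in these cultures.
Pabpc1: CCCCTTCTCCCCggc
Eif3f: CTCTTTCTCggcaag
Eif2s1: CTCTTggttgactaa

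The 5′UTR of Pabpc1, the cytoplasmic poly(A)-binding protein, also holds an A-rich stretch of the kind that its own protein is known to bind. Bases 105 to 134 of this 467-base 5′UTR are shown with each A in capitals, and 22 of these 30 bases are A. A window at least as rich in A was found in 0.659% of 6833 5′UTRs of 30 or more bases.
Pabpc1 A-rich stretch: gAAAAAAcccAAAAAAAAtttAcAAAAAAA

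After KCl, 45.5% of the 22 measured members were called in footprints and 13.6% in mRNA, and most of these calls were small rises. Over all measured transcripts the shares were 40.9% and 33.2%, so more calls in footprints than in mRNA were not particular to the members. Among these 22, Eif4ebp2, the repressor of eIF4E that predominates in brain, stood apart. Its footprints fell to 0.473 of the untreated level while the footprints of the helicase gene Eif4a2 rose 1.49-fold. In RNAseq, 3 of 22 measured members were called at an adjusted p under 0.05, all of them higher, and 33.2% of the 7262 measured transcripts were called (17.5% higher and 15.7% lower). In RF, 10 members were called, 9 higher and 1 lower, against 40.9% of all transcripts (20.9% higher and 20% lower). Eef2k, measured by a shorter transcript and so not among the 22, was called lower in both assays of the same fit. Its log2 change was -0.78 in RNAseq and -1.39 in RF, a larger RF fall than that of Eif4ebp2. Eef2k likely passed the filter through the untreated cultures alone, as described below. Adjusted p-values are those of edgeR's quasi-likelihood test with the Benjamini-Hochberg method over the 7262 transcripts. The median log2 change of the members was 0.117 in RNAseq and 0.126 in RF, and that of all transcripts was -0.0131 and -0.00814. RNAseq groups did not overlap for 5 members with both KCl cultures higher and for 4 with both lower, against 27.0% and 27.9% of all transcripts. RF groups did not overlap for 12 members with both KCl cultures higher, where the share among all transcripts was 30.3%, and for 4 with both lower, where it was 30.9%.

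Without KCl culture 4, 0 members were called in RNAseq and 5 in RF, and without KCl culture 5 there were 3 and 6. Without untreated culture 3, the shallowest in RF, there were 2 and 9, and with untreated culture 1 or 2 left out RF calls were 8 and 10. The split of directions depends on scaling. With library totals in place of TMM factors, the median log2 change of all transcripts moved from -0.00814 to -0.113 in RF, and members called in RF were then 5 higher and 3 lower. In RNAseq they were 1 higher (Pabpc1) and 2 lower (Eif5b and Eif6). Relative to all transcripts, the RF rises of Eif4a2, Eif3f, Eif3h, Eif4g2 and Pdcd4 and the RF fall of Eif4ebp2 were called under both scalings.

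**Figure D1:**
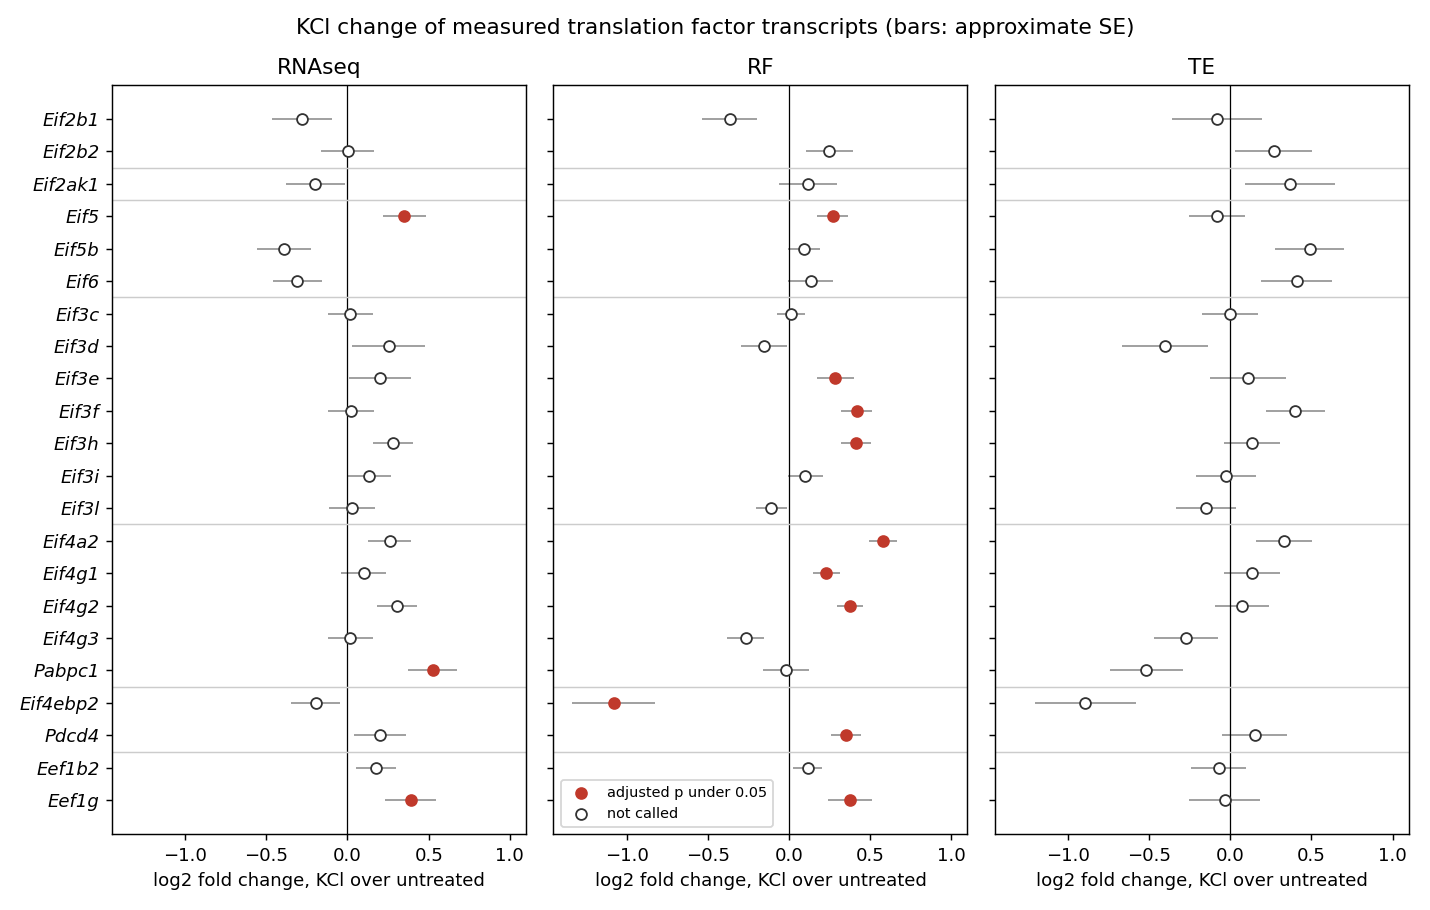
Log2 fold change of the 22 measured members, KCl over untreated, in RNAseq, RF and translation efficiency (TE), with bars for the approximate SE and filled points for an adjusted p under 0.05. Eif4ebp2 lies farthest to the left in RF at -1.08, Eif4a2 farthest to the right at 0.58, and no point is filled in TE.

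Of the 9 RF rises, 3 were of cap-binding and scanning factors, Eif4a2, Eif4g1 and Eif4g2. Eif4a2 (chr16:23107759-23113946, plus strand) encodes the eIF4A helicase paralog that is abundant in brain. Its RF levels, as CPM normalized by TMM factors, were 244.0, 249.3 and 234.0 in untreated cultures 1 to 3 and 378.5 and 350.3 in KCl cultures 4 and 5. The KCl cultures lay well above all untreated ones, with a log2 fold change of 0.58 ± 0.09 (SE) and an adjusted p of 3.79e-06 by edgeR. Its RNAseq levels were 213.0, 189.6 and 219.7 CPM without KCl and 278.4 and 218.4 CPM with it, so that the groups overlapped (log2 fold change 0.26 ± 0.13, adjusted p = 0.140).

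Eif4g2, which encodes a relative of eIF4G that lacks the eIF4E-binding region and supports other modes of initiation, had RF levels of 474.7, 504.7 and 526.4 CPM in untreated cultures and 664.2 and 635.0 CPM in KCl cultures. Both KCl values were above every untreated value, and RF rose by 0.38 ± 0.08 on the log2 scale (adjusted p = 0.000442, edgeR). Its RNAseq levels of 1407, 1174 and 1211 CPM without and 1667 and 1455 CPM with KCl did not overlap either, but the change of 0.30 ± 0.13 was not called (adjusted p = 0.0565). A second measured Eif4g2 transcript, which shares its reads in part, gave an RF change of 0.38.

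The main scaffold gene Eif4g1 had RF levels of 355.5, 323.4 and 346.6 CPM in untreated and 395.2 and 405.3 CPM in KCl cultures. This rise of 0.23 ± 0.08 in log2 was the smallest among the RF calls (adjusted p = 0.0291, edgeR), and it was not called without KCl culture 4 (adjusted p = 0.128), without KCl culture 5 (adjusted p = 0.263), with DESeq2 (0.0619) or with library totals (0.232). Eif4g3, the third scaffold, had RF levels of 131.6, 127.0 and 132.3 CPM without and 118.4 and 100.4 CPM with KCl. Both KCl values were below every untreated value, opposite to Eif4g1 and Eif4g2, with a log2 change of -0.27 ± 0.11 that was not called (adjusted p = 0.0631), and the difference between these genes was not tested. RNAseq of Eif4g3 was 168.0, 148.1 and 151.3 CPM without and 163.4 and 152.2 CPM with KCl, a log2 change of 0.02 ± 0.14.

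Among the 22 measured members, Pabpc1 had the lowest adjusted p in RNAseq. Its RNAseq levels were 92.30, 88.29 and 72.80 CPM in untreated and 124.3 and 119.0 CPM in KCl cultures, without overlap. The log2 fold change was 0.52 ± 0.15 (adjusted p = 0.00518, edgeR), and the call was lost without KCl culture 4 and with RNAseq reads on the CDS only (adjusted p = 0.0619 in each). Footprints on its CDS overlapped between the groups. RF was 65.86, 76.53 and 60.37 CPM without KCl and 63.08 and 71.53 CPM with it, a log2 change of -0.02 ± 0.14. Eif4b, a cofactor of the helicase that fell below the RPKM filter, had between 12.73 and 17.64 RF CPM without and 24.46 and 17.46 CPM with KCl. Only 18, 15 and 11 of its 417, 329 and 373 RNAseq reads without KCl lay on the CDS, and 16 and 14 of 355 and 461 with it. The CDS spans 1833 of 3854 bases and was hardly counted in RNAseq either, so its RF level and its place under the filter do not show low occupancy.

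The repressors of initiation moved in opposite directions. Eif4ebp2 (chr10:61428491-61452661, minus strand) had RF levels of 19.70, 19.17 and 25.10 CPM in untreated cultures and 8.367 and 10.41 CPM in KCl cultures. All untreated values were above both KCl values, and RF fell by 1.08 ± 0.25 on the log2 scale (adjusted p = 0.00119, edgeR). These levels rest on 157, 131 and 37 CDS reads without KCl and on 13 and 31 reads with it. RNAseq levels were 133.2, 124.1 and 100.3 CPM in untreated and 95.99 and 111.9 CPM in KCl cultures, which overlapped (log2 change -0.20 ± 0.15, adjusted p = 0.341). These RNAseq reads include a 3′UTR of 5309 bases, beside a CDS of 360 bases. With RNAseq reads on the CDS only, the change was -0.44 ± 0.21 and was not called (adjusted p = 0.115, edgeR).

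Pdcd4 (chr19:53903299-53929860, plus strand) encodes a protein that binds eIF4A and inhibits its helicase activity. Its RF levels were 171.1, 178.8 and 173.0 CPM without KCl and 227.8 and 218.0 CPM with it, and RF rose by 0.35 ± 0.09 on the log2 scale (adjusted p = 0.00336, edgeR). The groups were well separated in RF and overlapped in RNAseq, where the values were 86.25, 67.36 and 63.54 CPM in untreated and 78.83 and 87.47 CPM in KCl cultures. A shared set of CDS footprints was counted for 2 other measured Pdcd4 transcripts. RNAseq of one was 59.92, 41.87 and 41.19 CPM without and 62.93 and 66.74 CPM with KCl, which did not overlap. That change of 0.44 ± 0.18 was not called (adjusted p = 0.0545, edgeR), and the other transcript changed by 0.20 ± 0.16. Whether Pdcd4 rose in RF alone thus depends on the transcript. Without KCl culture 4 the RF change was not called (adjusted p = 0.0595). Eif4ebp1, the paralog of Eif4ebp2, had between 9.259 and 15.13 RNAseq CPM in untreated and 6.993 and 13.06 CPM in KCl cultures, and at most 7 CDS footprints in any library, too few to compare. At most 1 of its RNAseq reads in any library lay on the CDS, so these footprints do not show low occupancy.

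**Figure D2:**
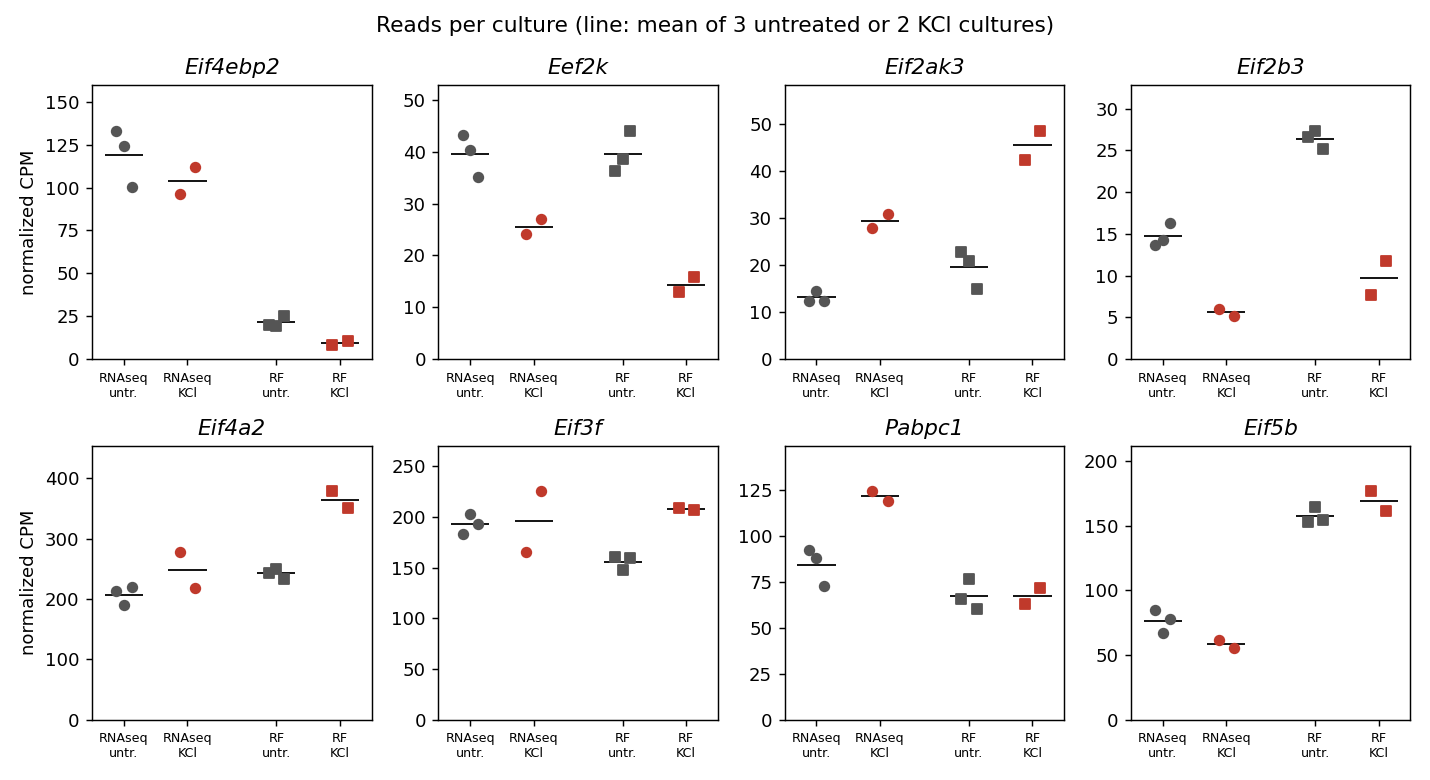
Normalized CPM of 8 members in each culture, with circles for RNAseq, squares for RF, grey for untreated and red for KCl, and a line at each group's mean. RF of Eif4ebp2 and both assays of Eef2k and Eif2b3 are lower in the KCl cultures, and both assays of Eif2ak3 are higher. Pabpc1 is higher in RNAseq alone, Eif4a2 and Eif3f are separated in RF alone, and Eif5b is lower in RNAseq alone.

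Of the subunit genes of eIF3, the scaffold that joins the small subunit to the mRNA, 7 were measured and 3 of these rose in RF. These were Eif3e, Eif3f and Eif3h. Eif3f had RF levels of 160.3, 147.6 and 159.4 CPM without and 208.5 and 206.9 CPM with KCl, a log2 rise of 0.42 ± 0.10 (adjusted p = 0.000927, edgeR). Its RNAseq values of 183.1, 202.4 and 193.2 CPM lay between the KCl values of 165.9 and 225.2 CPM.

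Eif3h had RF levels of 178.5, 197.4 and 192.0 CPM in untreated and 252.3 and 251.5 CPM in KCl cultures, and rose by 0.42 ± 0.09 in log2 (adjusted p = 0.000614, edgeR). The groups were also apart in RNAseq, at 256.3, 298.2 and 273.3 CPM without and 342.6 and 327.7 CPM with KCl, although that change of 0.28 ± 0.13 was not called (adjusted p = 0.0826). Eif3e had RF levels of 103.1, 119.1 and 96.32 CPM without and 131.3 CPM in both cultures with KCl. Its log2 rise of 0.29 ± 0.11 was near the threshold (adjusted p = 0.0471, edgeR) and was called in 3 of 11 alternatives, not without untreated culture 1 (adjusted p = 0.147), untreated culture 3 (0.108), KCl culture 4 (0.153) or KCl culture 5 (0.23), nor with DESeq2 (0.112), library totals (0.225), 1 transcript per gene (0.0606) or genes added up (0.103). The other measured subunit genes, Eif3c, Eif3d, Eif3i and Eif3l, had RF changes between -0.15 and 0.10 in log2, and none was called.

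Eif5, the GTPase-activating protein of eIF2 that acts at start codon selection, was called in both assays. RNAseq levels were 283.3, 219.4 and 280.3 CPM in untreated and 361.1 and 304.2 CPM in KCl cultures, a log2 rise of 0.35 ± 0.13 (adjusted p = 0.0383, edgeR). RF levels were 158.8, 164.9 and 160.8 CPM without and 199.5 and 190.7 CPM with KCl, a log2 rise of 0.27 ± 0.10 (adjusted p = 0.0259, edgeR). Neither pair of groups overlapped, but without KCl culture 4 neither change was called (adjusted p = 0.415 in RNAseq and 0.179 in RF). The RNAseq call was also lost without untreated culture 2 (adjusted p = 0.237), and the RF call without untreated culture 1 (adjusted p = 0.0684) or KCl culture 5 (adjusted p = 0.128). Both were also lost with DESeq2 (adjusted p = 0.0551 in RNAseq and 0.0673 in RF) and with library totals (0.0961 and 0.19).

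Eif5b and Eif6 act in the joining of ribosomal subunits, the first by promoting it and the second by keeping the large subunit apart. Eif5b RNAseq was 84.73, 67.36 and 77.91 CPM without and 61.98 and 55.09 CPM with KCl, the lowest RNAseq log2 change among the 22 measured members at -0.39 ± 0.17 (adjusted p = 0.0663). It passed the RPKM filter only in untreated cultures 1 and 3, at 11.01 and 10.24 RNAseq RPKM. Untreated culture 2 had 8.821 RPKM and the KCl cultures 7.727 and 6.854 RPKM. Eif5b is thus among the measured members only through the group where its RNAseq was higher, which limits this fall. Its RF levels of 152.7, 164.3 and 154.0 CPM without and 176.4 and 160.9 CPM with KCl overlapped. Eif6 likewise had both RNAseq values with KCl, 103.0 and 105.6 CPM, below the untreated range of 114.4 to 152.9 CPM, and its change of -0.31 ± 0.15 was not called (adjusted p = 0.111).

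Genes of eIF2, its kinases and its exchange factor were mostly under the RPKM filter, with Eif2b1, Eif2b2 and Eif2ak1 measured and none of them called in either assay. Eif2s1, the subunit of eIF2 that is phosphorylated, had RNAseq levels of 46.91, 41.87 and 48.53 CPM without and 35.28 and 28.68 CPM with KCl. With no filter beyond 1 read, the change of -0.45 ± 0.20 was not called (adjusted p = 0.103). No RNAseq or RF read was counted on the CDS of Eif2s1, Eif5a or Eef1a1. Degenerate stretches had been removed from the reference, and whether this left the CDS of these genes uncounted was not tested. RF and TE were not computed for these 3 genes, and their RNAseq reads lie outside the CDS. RF reads were counted on their 5′UTR, in Eef1a1 975, 1093 and 214 without and 208 and 368 with KCl.

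In that fit without the filter, 19.2% of 21603 transcripts were called in RNAseq (10.5% higher and 8.63% lower) and 26.2% of 20296 in RF (13.9% higher and 12.3% lower). Of the 11 unmeasured members 4 were called in RNAseq, 2 in each direction, and of the 8 with CDS footprints 4 were called in RF, also 2 in each direction. Eif2ak3, Eif2b3 and Eef1d are named from these after their values were seen. Eif2ak3 encodes PERK, the eIF2 kinase of the endoplasmic reticulum. Its RNAseq levels were 12.41, 14.56 and 12.45 CPM in untreated and 27.97 and 30.96 CPM in KCl cultures, and its RF levels 22.71, 20.93 and 14.92 CPM and 42.48 and 48.69 CPM. Both assays rose by 1.23 on the log2 scale, with SEs of 0.25 and 0.18 and adjusted p-values of 2.59e-05 and 5.57e-10 by edgeR.

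Eif2b3, which encodes the gamma subunit of eIF2B, moved the other way. RNAseq was 13.62, 14.26 and 16.28 CPM in untreated and 6.039 and 5.112 CPM in KCl cultures, a fall of 1.33 ± 0.35 in log2 (adjusted p = 0.00172, edgeR). RF was 26.59, 27.36 and 25.10 CPM without and 7.724 and 11.75 CPM with KCl, a fall of 1.30 ± 0.25 (adjusted p = 2.62e-06, edgeR). Neither assay overlapped between groups, and the KCl footprints rest on 12 and 35 CDS reads. The other unmeasured kinase genes, Eif2ak2 and Eif2ak4, were not called.

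Among the elongation factors, Eef1g rose in both assays and Eef2k fell in both. Eef1g, a structural subunit of the eEF1 exchange complex, had RNAseq levels of 69.60, 97.70 and 88.12 CPM without and 114.1 and 108.8 CPM with KCl (log2 change 0.39 ± 0.15, adjusted p = 0.0484, edgeR). RF levels were 80.41, 62.34 and 86.83 CPM without and 93.33 and 100.1 CPM with KCl (log2 change 0.38 ± 0.14, adjusted p = 0.0276, edgeR). The groups did not overlap in either assay, but both calls were near the threshold. The RNAseq call was lost when untreated culture 1, untreated culture 3, KCl culture 4 or KCl culture 5 was left out (adjusted p from 0.0678 to 0.225), and the RF call without untreated culture 2, KCl culture 4 or KCl culture 5 (adjusted p = 0.105, 0.071 and 0.272). Both calls were also lost with DESeq2, library totals or genes added up, and the RNAseq call with reads on the CDS only (adjusted p from 0.0647 to 0.227 over these).

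Eef2k (chr7:120842831-120907450, plus strand), the kinase of eEF2, had RNAseq levels of 43.27, 40.35 and 35.12 CPM in untreated and 24.16 and 26.98 CPM in KCl cultures. Its RF levels were 36.25, 38.63 and 44.09 CPM in untreated and 12.87 and 15.78 CPM in KCl cultures, so that the groups were apart in both assays. With no filter beyond 1 read, RNAseq fell by 0.56 ± 0.21 in log2 (adjusted p = 0.0475, edgeR) and RF by 1.32 ± 0.21 (adjusted p = 1.83e-08, edgeR). A shorter Eef2k transcript, which has the same footprint counts, did pass the filter and fell by 0.78 ± 0.24 in RNAseq (adjusted p = 0.00898) and by 1.39 ± 0.20 in RF (adjusted p = 2.08e-06). RF of Eef2k in the KCl cultures rests on 20 and 47 CDS reads. On the CDS length of the longer transcript, RF was 17.24, 18.55 and 20.45 RPKM without and 5.726 and 6.934 RPKM with KCl. At that length the filter of 10 RPKM was passed through the untreated cultures alone, where Eef2k is high. That the shorter transcript passed it is therefore no support for the fall.

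Eef1a1, which encodes the factor that delivers aminoacyl-tRNA, had RNAseq levels of 329.6, 341.9 and 373.9 CPM without and 414.5 and 359.5 CPM with KCl, which overlapped. Eif5a, a factor for peptide bonds that form slowly, had 173.1, 171.4 and 196.0 CPM without and 244.7 and 298.5 CPM with KCl, a rise of 0.66 ± 0.14 in log2 in the fit without the filter (adjusted p = 3.12e-05, edgeR). Eef1d, an exchange factor subunit, was called in RF alone in that fit, at 1.02 ± 0.32, on between 6 and 60 CDS reads per library. Its RNAseq reads on the CDS were 3, 1 and 5 without and 10 and 2 with KCl, so its CDS was hardly counted in RNAseq. Eef1b2, the other measured elongation gene, had log2 changes of 0.18 ± 0.13 in RNAseq and 0.12 ± 0.09 in RF, and neither was called.

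TE, the CDS footprint RPKM over the RNAseq RPKM of the same culture, was tested by asking whether the treatment effect differed between the assays, with the culture as a blocking factor. None of the 22 members was called by edgeR, where 5.82% of all transcripts were (1.58% higher and 4.24% lower), and none by DESeq2. At an unadjusted p under 0.05 there were 4 of 22 members, Eif4ebp2, Pabpc1, Eif5b and Eif3f, and 16.9% of all transcripts. TE of Eif4ebp2 was 2.421, 2.535 and 3.953 in untreated and 1.392 and 1.470 in KCl cultures, without overlap. Its log2 change of -0.89 ± 0.31 had an adjusted p of 0.0633, between 0.0191 and 0.516 over 14 alternatives, of which 5 called it, among them the fits without untreated culture 1 (adjusted p = 0.0279) and without untreated culture 2 (0.0436). With RNAseq reads on the CDS only, the TE change of Eif4ebp2 was -0.67 ± 0.36 (adjusted p = 0.387, edgeR). TE of Pabpc1 was 1.073, 1.307 and 1.203 without and 0.7448 and 0.873 with KCl (log2 change -0.52 ± 0.22, adjusted p = 0.178).

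Eif5b passed the filter only through untreated cultures 1 and 3. Its TE was 3.923, 5.327 and 4.152 without and 6.044 and 6.138 with KCl (log2 change 0.49 ± 0.21, adjusted p = 0.178). For Eif3f it was 2.071, 1.730 and 1.883 without and 2.900 and 2.097 with KCl, where KCl culture 5 lay close to untreated culture 1 (log2 change 0.40 ± 0.18, adjusted p = 0.204). KCl TE lay above all untreated values for 5 members and under them for 5, with 14.2% and 19.4% of all transcripts doing so. The median log2 change in TE was 0.0342 over the members and 0.0215 over all transcripts.

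In untreated cultures, the 22 measured members had a higher median mRNA level than all measured genes and a similar median TE. Their median RNAseq level was 46.57 RPKM, against 21.37 RPKM over the 4370 measured genes, and 17 of 22 lay above that median. Of the 33 listed members, 7 were under 10 RPKM in the untreated mean, so that these medians describe only the members past the filter. The median TE was 1.746 over the members and 1.708 over all genes, with 11 members above and 11 under the latter. With RNAseq reads of all regions in the denominator, measured members spanned 0.8486 ± 0.0206 (SD, n = 3) for Eif3h to 4.467 ± 0.753 for Eif5b, while the middle portion of all genes, from the lower to the upper quartile, spanned 1.110 to 2.658. Eif3i, at 0.8881 ± 0.128, overlapped Eif3h, and Pdcd4, at 4.179 ± 0.658, overlapped Eif5b. Eif5b passed the filter only in untreated cultures 1 and 3, and its untreated RNAseq mean was 10.02 RPKM.

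Subunit genes of the same complex differed in TE. Among the eIF3 genes it ran from Eif3h through Eif3f (1.895 ± 0.171) and Eif3c (2.339 ± 0.210) to Eif3e (3.339 ± 0.580), with no overlap of cultures between Eif3h, Eif3f and Eif3e. The level of the mRNA ran the other way at both ends, with 217.4 RPKM for Eif3h and 24.66 RPKM for Eif3e. This level is also the denominator of TE, so the opposite order is not a separate result. In the cap-binding group, TE was 1.187 ± 0.153 for Eif4g2, 1.450 ± 0.0704 for Eif4g3, 2.483 ± 0.118 for Eif4g1 and 2.957 ± 0.371 for Eif4a2. These levels depend on the denominator. With RNAseq reads on the CDS alone, TE moved by more than 1.5 times in 6 members. It became 0.5435 in place of 2.970 for Eif4ebp2, 0.5107 in place of 1.415 for Eef1b2 and 0.6147 in place of 1.187 for Eif4g2. For Eif5b it became 2.597 in place of 4.467, for Eif5 3.030 in place of 1.996 and for Eef1g 2.024 in place of 1.326. The lowest member was then Eef1b2 and the highest Eif3d, at 4.488.

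**Figure D3:**
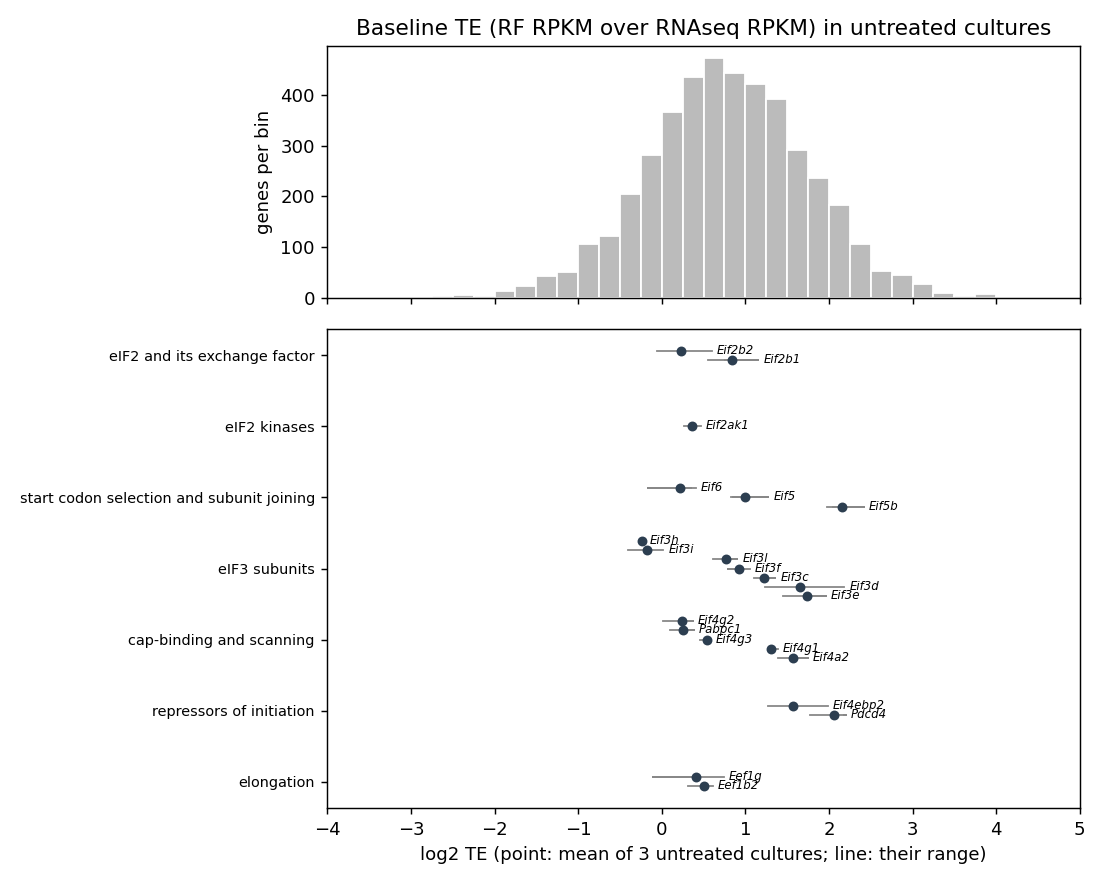
Baseline TE on a log2 axis, with the number of measured genes per bin in the upper panel and the 22 measured members by role in the lower panel (point for the mean of 3 untreated cultures, line for their range). The members spread across the body of the distribution, from Eif3h at 0.849 to Eif5b at 4.47 on the linear scale, and genes of the same complex lie apart.

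Footprints on the 5′UTR were compared for the 11 members with a 5′UTR of at least 50 bases at least 20 RF reads on 5′UTR plus CDS in every culture and at least 20 on the 5′UTR over all cultures, among 4304 such transcripts. In Pabpc1, whose 5′UTR carries the A-rich stretch shown above, the 5′UTR held 37.20%, 42.90% and 50.28% of these reads in untreated cultures 1 to 3 and 40.61% and 34.26% in KCl cultures 4 and 5. In Eif5 it held 33.16%, 32.23% and 34.17% without and 38.37% and 35.89% with KCl. The untreated means of these 2 genes lay at the 96.6 and 92.9 percentiles of all such transcripts, whose median share was between 6.507% and 9.905% per culture. Eif4g3 had shares of 8.464%, 8.632% and 7.143% without and 9.804% and 10.75% with KCl.

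The shares of Eif5 and Eif4g3 in both KCl cultures were above all untreated values, as in 17.5% of all transcripts, and those of Pabpc1 overlapped. For Eif5 this depends on the transcript. Another measured Eif5 transcript with the same CDS footprints had 386, 389 and 63 reads on its 5′UTR without and 117 and 192 with KCl. The transcript shown had 628, 536 and 123 without and 193 and 318 with it. Shares of the other transcript were lower and overlapped between the groups. These shares are given as a description, and no model was fitted to them. An exact permutation of 3 against 2 cultures has 10 splits and cannot give a p under 0.1. The other 8 members overlapped as well, including Eif4g2 with the GTG start, at 13.41%, 10.86% and 20.49% without and 18.10% and 19.60% with KCl. The all-transcript median was highest in untreated culture 3, the shallowest RF library, and its part in the shares was not tested. Of the 22 measured members 7 had an upstream ATG, against 50.6% of the 7199 transcripts. There were 7 such triplets in Eif4g3, 5 in Eif5, 3 in Eif4g1 and in Eif5b, 2 in Eef1g and 1 in Eif4g2 and in Eef1b2. Pabpc1, with the highest share, had 0. Untreated shares of Eif4g1, Eif5b and Eef1g lay at the 14.3, 23.4 and 10.6 percentiles and overlapped with those under KCl. A link between these triplets and the shares was not tested.

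**Figure D4:**
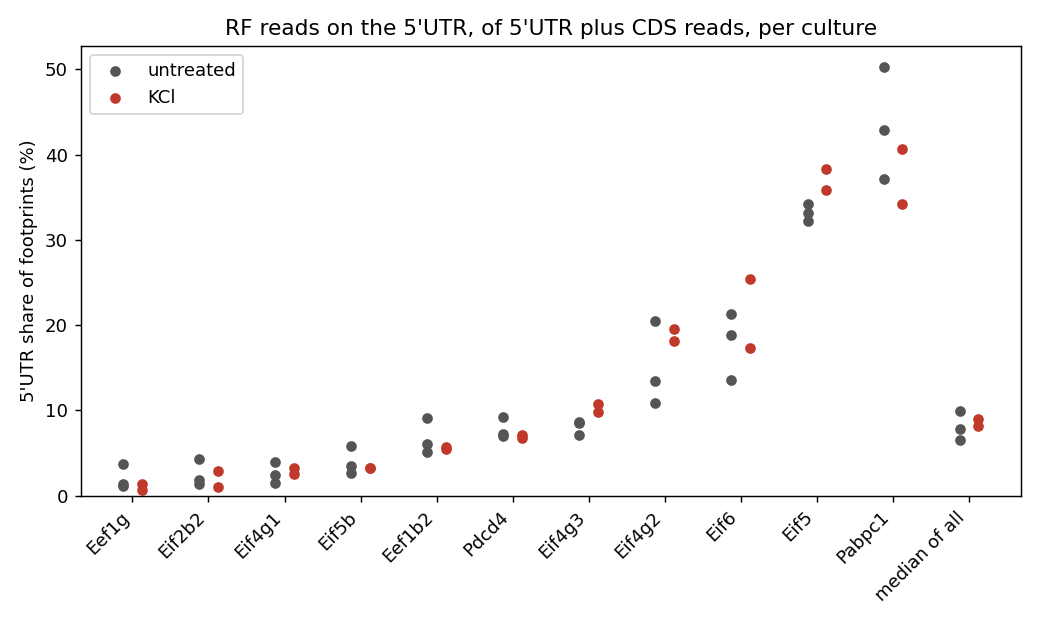
Share of RF reads on the 5′UTR, in percent of 5′UTR plus CDS reads, in each culture for 11 members and for the median of all 4304 transcripts (grey for untreated, red for KCl). Pabpc1 and Eif5 lie above 30% in every culture, and in Eif5 and Eif4g3 both KCl cultures are above the untreated ones. Another measured Eif5 transcript, not shown, had lower shares that overlapped between the groups.

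Of 38 further translation factors and regulators, 15 were measured, and 7 rose and none fell in RNAseq, 8 rose and 1 fell in RF, and Ppp1r15b, Eif4e2 and Eif1ad fell in TE. For these and the next lists, the shares over all transcripts are 17.5% higher and 15.7% lower in RNAseq, 20.9% and 20% in RF, and 1.58% and 4.24% in TE. Their median log2 change was 0.294 in RNAseq and 0.415 in RF. The largest RNAseq rise was that of Ppp1r15b, a subunit of the eIF2 phosphatase, at 1.78 ± 0.14 in log2, and its TE fell by 0.96 ± 0.21 (adjusted p = 0.000452, edgeR). The release factor gene Etf1 rose by 1.22 ± 0.15 in RNAseq and by 1.26 ± 0.10 in RF, and the helicase gene Ddx3x by 0.91 ± 0.15 and 1.49 ± 0.12. Eif4e2, which encodes a cap-binding protein that represses translation, rose by 0.55 ± 0.17 in RNAseq and fell by 0.56 ± 0.17 in RF and by 1.12 ± 0.26 in TE (adjusted p = 0.00115, edgeR).

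Of 21 genes of mTORC1 and MNK signalling to translation, 9 were measured, with a median log2 change of 0.135 in RNAseq and -0.227 in RF. In RNAseq 2 rose, Mknk2 (0.67 ± 0.17), a kinase of eIF4E whose TE fell by 0.93 ± 0.29 (adjusted p = 0.031, edgeR), and Rheb (0.41 ± 0.15), an activator of mTORC1, and 2 fell, Ddit4 (-1.09 ± 0.20) and Mtor (-0.40 ± 0.16). In RF Akt1s1, an inhibitory subunit of mTORC1, rose by 1.09 ± 0.16, and Mtor, Btrc and Ddit4 fell. Of 85 ribosomal protein genes only 3 were measured, with medians of 0.388 and 0.284, and of these Rps9 rose in both assays and Rps3 in RF.

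Summed markers of glia were lower in both KCl cultures, but few single markers were called. In the fit without the filter, 1 of 8 astrocyte, 1 of 7 oligodendrocyte lineage and 2 of 7 microglia markers were called lower, with 8.63% of all transcripts lower. Of 6 fibroblast and endothelial markers in the counts 1 was called lower, and the sums of that list overlapped between the groups. Of 8 neuronal markers 1 was called higher. The summed RNAseq level of the astrocyte, oligodendrocyte lineage, microglia and fibroblast and endothelial lists was 0.825, 0.911, 0.838 and 0.884 of the untreated level with KCl, that of the neuronal list was 1.02, and no marker in the counts was at 0. Their part in the members' changes was not tested.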

How the data were processed

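Reads of 10 libraries were processed by the authors, who trimmed them with Trimmomatic 0.32, removed rRNA reads with STAR 2.3.1z8, aligned the rest with Bowtie2 2.2.2 to mm10 transcripts without degenerate sequences and counted them per transcript region with bedtools 2.20.1. The deposited values are raw counts for 22534 transcripts, of which 22172 were matched to GENCODE M21. Reads shared by isoforms or near-identical genes were kept, so single isoforms are uncertain. For RNAseq the reads of all regions were added up, and for RF the CDS reads were used. Normalized CPM divide reads by the library total times its TMM factor. RPKM and TE use library totals without it.

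Tests were edgeR 4.0.16 quasi-likelihood fits in R 4.3.3 (robust, TMM within each assay) over 7262 transcripts with Benjamini-Hochberg adjustment. The SE is the log2 change over the square root of F, an approximation. Scripts were tested on simulated data. Plots used matplotlib 3.10.9. TE was fitted with culture as a block, since both libraries of a number come from the same culture lysate. The correlation of their deviations from the group means was between -0.0737 and 0.0639. Alternatives were DESeq2 1.42.0, library totals, other filters, 1 transcript per gene, genes added up, RNAseq reads on the CDS, TMM over all libraries, no block and leaving out each culture.

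The members and lists were chosen with earlier results of these data known. By the rule for named genes, values per culture are given for measured members that were called and for Eif2s1, Eif4ebp1, Eif4g3, Eif5a, Eef1a1 and Eef2k whatever their change. Values of Eif4b, Eif5b, Eif6, Eif2ak3, Eif2b3 and Eef1d were added after they were seen. Genes outside the members are at most the 3 largest rises and falls called in a list. The 4 counted regions are marked by letters alone. Which letter is the 5′UTR, CDS or 3′UTR was inferred from read shares and annotated lengths, and 1 letter was left unnamed, so RF, TE and UTR values rest on this assignment. The precision depends on depth, which was 1463654 reads in the shallowest RF library.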

Additional observations from a re-analysis of the deposited data

Results flagged for a closer look

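Eif4a2 was set apart by its number of RF reads on the 3′UTR, the highest among the listed members. RF reads on its 3′UTR reached a mean of 33.0 CPM in the KCl cultures, from 32.3 and 33.6 CPM, above 28.6, 29.8 and 24.6 CPM in the untreated cultures. These CPM use library totals without TMM factors, unlike the RF CPM given for this gene above. They rest on 221, 195 and 36 reads without KCl and on 52 and 105 reads with it. The difference was not tested, and reads on the 3′UTR enter neither the RF nor the TE values of this gene. Also by library totals, its CDS footprints were 232.0, 239.5 and 217.0 RPKM without and 336.7 and 307.8 RPKM with KCl, a larger rise in proportion.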

How the results depend on the processing

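The number of members called in RNAseq was 3 and became 5 with filterByExpr, and it ranged from 0 to 4 when each culture was left out in turn, with 0 without KCl culture 4. In RF the number was 10, with 6 by DESeq2, and between 5 and 10 with a culture left out (5 without KCl culture 4 and 6 without KCl culture 5). With a KCl culture left out, the lone KCl culture is assumed to vary like the untreated ones. The RF calls of Eif3f, Eif3h, Eif4a2, Eif4ebp2 and Eif4g2 were made in all 11 alternatives and that of Pdcd4 in 10. In TE the number was 0, and 1 with library totals, with 1 transcript per gene and with genes added up, and it ranged from 0 to 1 with a culture left out. That member was Eif4ebp2 each time, and with genes added up its TE change was -0.96 (adjusted p = 0.0191, edgeR). Without the block for culture 0 members were called in TE, as with it. No called value changed sign. The causes were not tested, other than that fewer cultures entered. The median change in 5′UTR share over 11 members was -0.54 percentage points, between -0.999 and 0.363 with a culture left out, so no direction is given. The median percentile of baseline TE was 51.2, and 44.2 among genes with at least 1 read in every library. RF depth limits the low members: Eif4ebp2, Eif2b3 and Eef2k had 13, 12 and 20 CDS reads in KCl culture 4.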
